A study of Homo sapiens with 12 samples.

Results

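The 10 loci described here are imprinted genes or gene regions: GNAS, H19, IGF2, KCNQ1OT1, CDKN1C, DLK1, MEG3, SNRPN, PEG10 and MEST. Each was taken as a fixed span of the hg19 genome with 10 kb added on both sides, and every peak that touched this window was counted as a member. This gave 121 peaks out of 457217 in the 5 lists. The cells were RWPE-1, an established prostate epithelial line that carries human papillomavirus 18 as its immortalising agent. They were kept in serum-free keratinocyte medium with bovine pituitary extract at 0.05 mg/ml and EGF at 5 ng/ml. Chromatin immunoprecipitation was sequenced for H3K4me3, H3K27ac, H3K4me1, H3K36me3 and H3K27me3, with 2 replicates each, and both replicates of a mark are represented by 1 combined peak list. All libraries come from this 1 untreated line, and there were no treated or mutant groups. No value below therefore has an error between replicates, and no test over replicates was possible. Read counts are not part of the lists, and the depth behind a peak is unknown.

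Imprinted genes are expressed mainly from the copy inherited from 1 parent, and the choice is set by DNA methylation laid down in the germ line at control regions. The silent copy of an imprinted promoter often carries repressive histone marks while the expressed copy carries active ones. H3K4me3 marks promoters, H3K27ac active promoters and enhancers, H3K4me1 enhancers, H3K36me3 transcribed gene bodies, and H3K27me3 is the mark of Polycomb repression. An imprinted promoter can therefore hold opposing marks in the same cell. The lists do not separate the parental copies, so marks on the same molecule, on the other copy or in other cells cannot be told apart. The deposited score of a peak was read as -10 times log10 of the peak caller's p-value and is used only to rank peaks within a list.

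The loci fell into a group whose 5' end had H3K4me3 without H3K27me3 and a group whose 5' end had H3K27me3 without H3K4me3, and GNAS had both there. The 5' end is the end of the span at which transcription starts. At KCNQ1OT1, CDKN1C, SNRPN, PEG10 and MEST an H3K4me3 and an H3K27ac peak both held the 5' end, and the nearest H3K27me3 peak lay at least 11.2 kb away. At IGF2, DLK1 and MEG3 an H3K27me3 peak held the 5' end and no H3K4me3 peak lay within 1 kb. GNAS was the 1 locus of 10 with H3K4me3 and H3K27me3 within 1 kb of the 5' end, and H3K36me3 held it too. H19 had none of these marks at its 5' end, and an H3K27ac peak began 58 bases upstream.

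**Figure D1:**
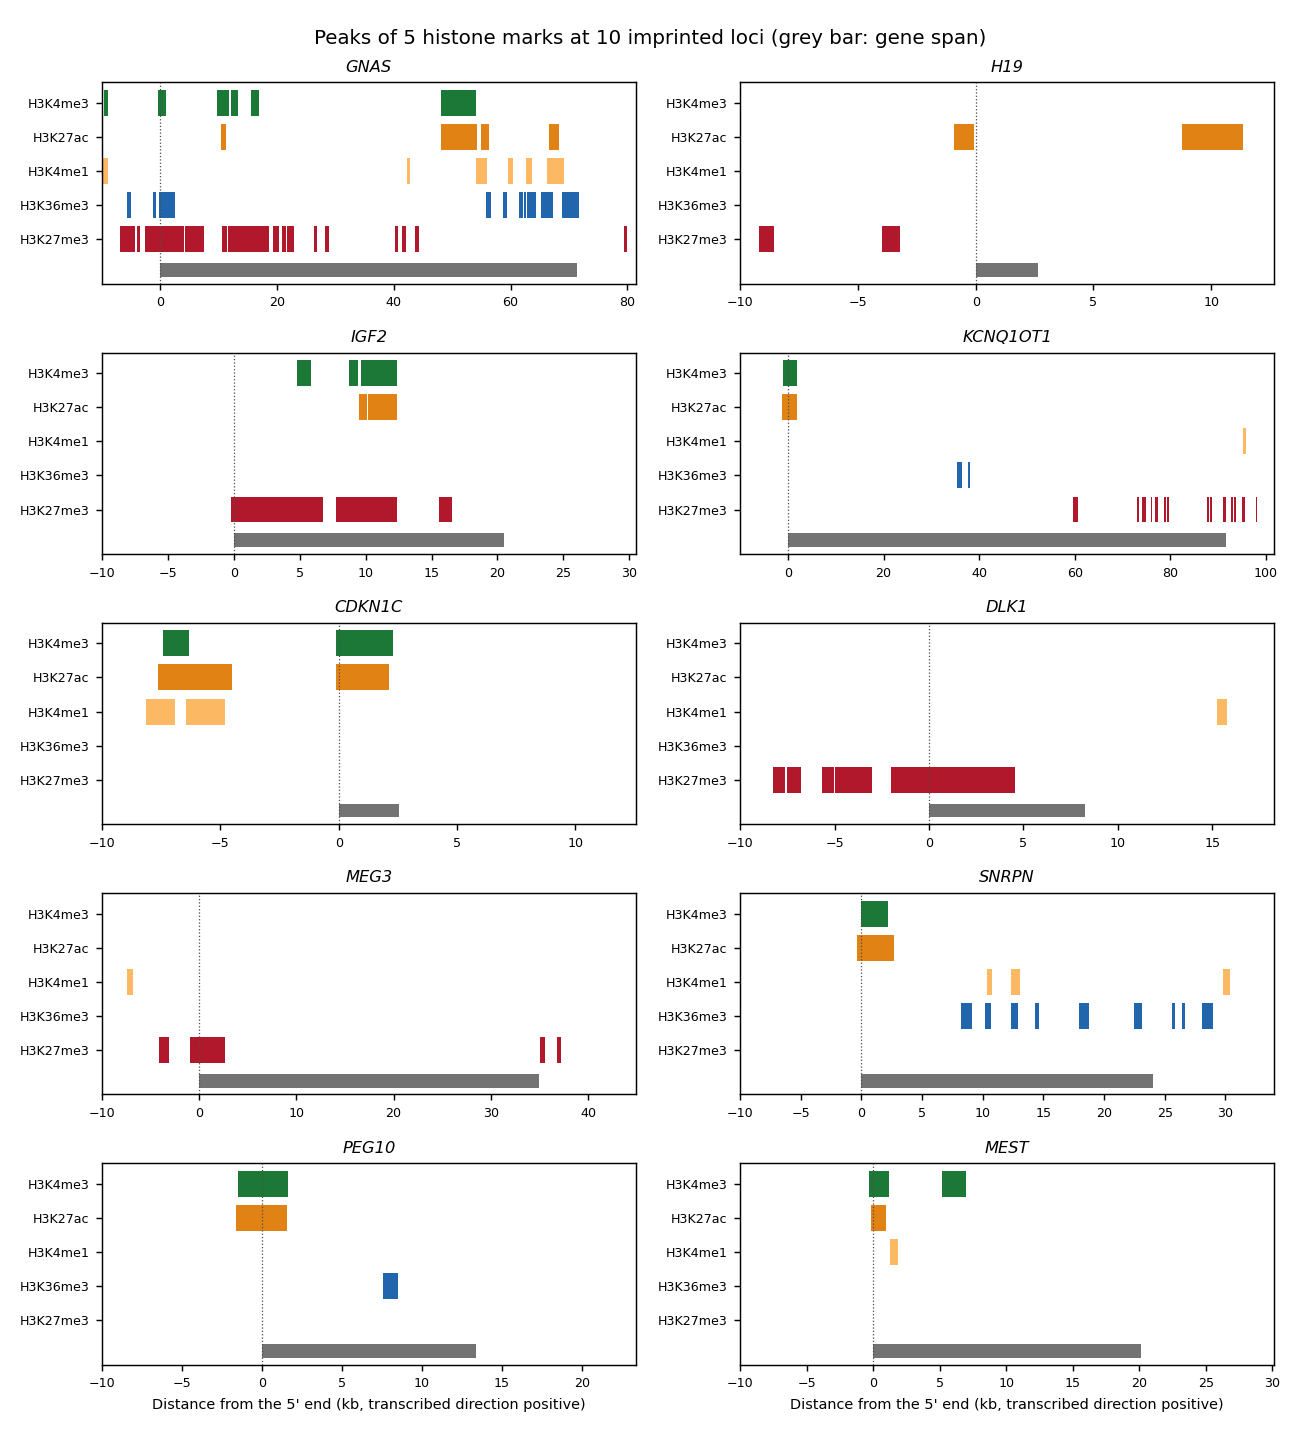
Peaks of the 5 marks at the 10 loci. The horizontal axis is the distance from the 5' end in kb, positive in the direction of transcription, and each coloured bar is 1 peak. H3K4me3 and H3K27ac sit together at the 5' end of KCNQ1OT1, CDKN1C, SNRPN, PEG10 and MEST, while H3K27me3 holds the 5' end of IGF2, DLK1 and MEG3.

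Promoter sequences are shown for 3 loci, to let the CpG content of their starts be read beside the marks of the locus: GNAS, with opposing marks, MEG3, with H3K27me3 at its 5' end, and MEST, with H3K4me3 in 2 places. RefSeq's promoter table (GRCh38.p14) holds 19 starts for 5 of the loci (GNAS, H19, MEG3, SNRPN and MEST). The 250 bases before a start are printed 5' to 3', with CpG dinucleotides, the target of DNA methylation, in capitals. The outermost GNAS start is at chr20:58839498-58839747 and the GNAS start 49.4 kb further on is at chr20:58888930-58889179, on the plus strand. The first MEG3 start is at chr14:100825858-100826107. The MEST starts shown are the outermost, at chr7:130485925-130486174, and one 5.91 kb further on, at chr7:130491835-130492084. All are on the plus strand of GRCh38.p14, and no position was carried over to hg19. A start in the RefSeq table, such as that of H19, may therefore differ from the 5' end used for the marks.
GNAS outermost start: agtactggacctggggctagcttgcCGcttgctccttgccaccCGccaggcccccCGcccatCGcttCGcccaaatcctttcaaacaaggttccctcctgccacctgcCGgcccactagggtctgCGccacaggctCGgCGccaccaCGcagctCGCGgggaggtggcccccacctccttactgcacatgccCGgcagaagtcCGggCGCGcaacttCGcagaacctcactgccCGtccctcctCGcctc
GNAS start 49.4 kb on: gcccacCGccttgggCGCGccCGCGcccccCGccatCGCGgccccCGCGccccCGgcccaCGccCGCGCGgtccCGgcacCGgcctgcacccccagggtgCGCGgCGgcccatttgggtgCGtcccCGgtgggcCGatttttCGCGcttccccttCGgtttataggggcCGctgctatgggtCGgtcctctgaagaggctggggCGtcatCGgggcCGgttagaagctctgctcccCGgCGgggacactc
MEG3 first start: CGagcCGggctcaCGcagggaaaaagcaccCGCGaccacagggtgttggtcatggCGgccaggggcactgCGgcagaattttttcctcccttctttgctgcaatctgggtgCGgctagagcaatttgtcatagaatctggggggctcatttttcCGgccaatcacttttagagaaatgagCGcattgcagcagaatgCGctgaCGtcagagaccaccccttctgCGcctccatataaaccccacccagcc
MEST outermost start: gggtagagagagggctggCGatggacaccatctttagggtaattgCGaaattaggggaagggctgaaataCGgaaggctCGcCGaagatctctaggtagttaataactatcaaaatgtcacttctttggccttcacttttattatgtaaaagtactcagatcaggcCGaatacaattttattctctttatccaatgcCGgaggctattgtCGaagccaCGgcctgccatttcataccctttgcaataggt
MEST start 5.91 kb on: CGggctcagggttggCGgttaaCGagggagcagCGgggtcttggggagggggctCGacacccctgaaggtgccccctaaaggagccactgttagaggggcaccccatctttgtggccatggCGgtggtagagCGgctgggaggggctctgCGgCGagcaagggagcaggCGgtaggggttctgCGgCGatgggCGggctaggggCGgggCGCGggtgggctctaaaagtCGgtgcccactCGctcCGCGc

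These promoters differed in CpG content. The GNAS start 49.4 kb on had 33 CpG in 250 bases, more than 91.9% of the 35116 promoters of the table, whose median was 11. The other GNAS starts had 19 at the outermost, 27 at 1.87 kb, 15 and 18 at 13.0 and 13.2 kb, and 9 at 48.7 kb. The first MEG3 start had 13. The SNRPN starts had 6 at the outermost, 1 at 6.40 kb, 12 at 98.4 kb and 6 at 99.7 kb, and the H19 start had 4. The MEST starts had 9 and 20 at the outer end and 11, 16 and 20 at 5.15, 5.88 and 5.91 kb, so both ends of that set held CpG-poorer and CpG-richer starts. The letters TGCCGC, the core bound by ZFP57, a zinc finger protein that protects imprints, were searched on both strands of the 250 bases. They were found at the outermost GNAS start, all 3 MEG3 starts, 2 of 4 SNRPN starts and 1 of 5 MEST starts. Among all promoters of the table, 12.7% held them. The 2 SNRPN starts were those at 98.4 and 99.7 kb from the outermost. The window used for the marks of SNRPN is 44.0 kb, so not all of its starts can lie in it. The cAMP response element TGACGTCA, which reads the same on both strands, was found at all 3 MEG3 starts and at 1.65% of all promoters. The 3 MEG3 windows overlap almost fully, since the starts lie within 24 bases, and do not count as separate matches. AAGATGGC, a core bound by YY1, was searched on both strands, was found at none of the 19 starts and is in 1.36% of all promoters.

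GNAS encodes the alpha subunit of the stimulatory G protein, and its other promoters make the neuroendocrine secretory protein NESP55, the extra-large protein XLas and noncoding transcripts, with different parental origins. The span runs on chromosome 20 from 57414795 to 57486250 (hg19), and its lower end is the start of the NESP55 transcript. For description, the window was divided at its strongest H3K4me3 peak into an upstream and a downstream part. Nearly all H3K27me3 lay in the upstream part, which also held 5 H3K4me3 peaks and 1 H3K27ac peak. Before the strongest H3K4me3 peak, 20 H3K27me3 peaks covered 26.5 kb, or 45.6% of the sequence. They were not spread evenly. Beyond 22.88 kb from the 5' end they were few and small, 509 to 716 bases wide with scores of 60.2 to 131. From that peak on, 1 H3K27me3 peak was left, over 0.545 kb near the far end of the window. H3K36me3, with 11 peaks in the window, covered 33.2% of the sequence after the strongest H3K4me3 peak and 6.48% of that before it.

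The strongest H3K4me3 peak of GNAS, from 57462850 to 57468856, was also the widest of the 10 loci. It was 6007 bases wide, wider than 99.6% of the H3K4me3 list. Its score of 3100 was the value taken as the ceiling and exceeded 86.1% of that list. An H3K27ac peak of 6126 bases, also at a score of 3100, had 5972 bases in common with it. No H3K27me3 base fell in it, and the last H3K27me3 peak ended 3.75 kb before it. The first of 8 H3K36me3 peaks followed 1.81 kb after it, and the strongest of these, with a score of 1622, covered the last 2912 bases up to just beyond the end of the span. The peak ran from 48.05 to 54.06 kb from the 5' end. In the GRCh38 table, starts of GNAS lie 48.7 and 49.4 kb from the outermost one, with 9 and 33 CpG in the 250 bases before them, and the second of these is printed above.

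At the 5' end of GNAS, 3 marks lay on the same bases. The H3K4me3 peak from 57414439 to 57415788 was weak, with a score of 56.7 that exceeded 8.99% of its list. It lay wholly inside an H3K27me3 peak of 6608 bases, from 57412229 to 57418836, with a score of 3021 that exceeded 99.0% of that list. An H3K36me3 peak of 2665 bases, from 57414574 to 57417238, lay inside the same H3K27me3 peak and had a score of 290. All 3 marks shared 1215 bases. No H3K27ac or H3K4me1 peak touched this promoter, and the nearest H3K27ac peak began 10.4 kb downstream.

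The 3 H3K36me3 peaks in the upstream part of GNAS each lay fully inside H3K27me3. They were 3 of the 23 H3K36me3 members, or 13.0%, while 0.470% of all H3K36me3 peaks touched H3K27me3 and 0.244% were covered fully. The other 2, of 548 bases each, lay upstream of the span and had scores of 98.5 and 62.3. With scores of at least 100 in every list, 1 of 12 H3K36me3 members was left, or 8.33%, against 0.218% of the list, and within the span alone it was 1 of 18. H3K4me3 peaks that touched both H3K36me3 and H3K27me3 made up 0.489% of the whole list, and the peak at the 5' end of GNAS was the 1 such peak at the 10 loci. H3K36me3 and H3K27me3 mark transcribed and silenced chromatin and seldom share sequence.

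A second stretch of GNAS, from 9.73 to 17.33 kb from the 5' end, held 3 H3K4me3 peaks that touched H3K27me3. The first, from 57424529 to 57426528, was strong, with a score of 1487. H3K27ac covered 876 of its 2000 bases and H3K27me3 covered 1037, and 725 bases carried all 3 marks. The H3K27ac peak had a score of 133 and the H3K27me3 peak under it one of 60.1, so 1 of the 3 lists was near its lowest score there. The next H3K4me3 peaks, from 57426970 to 57428174 and from 57430296 to 57431721, were weak, at 78.5 and 72.2. Both lay wholly inside H3K27me3 peaks with scores of 311 and 2209, with no H3K27ac. The GRCh38 table has GNAS starts 13.0 and 13.2 kb from the outermost one, and the first of these weak peaks ran from 12.18 to 13.38 kb. The sixth H3K4me3 peak of GNAS lay 8.95 kb upstream of the span, touched H3K4me1 and had a score of 113.

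IGF2 encodes insulin-like growth factor 2, a fetal growth factor expressed from the paternal copy, and lies on chromosome 11 from 2150347 to 2170833 on the minus strand. It shared more bases between H3K4me3, H3K27ac and H3K27me3 together than GNAS, at 2589 against 725, and fewer between H3K4me3 and H3K27me3, at 4416 against 5018. H3K27me3 formed 5 peaks over 31.5% of the window. The strongest spanned 5994 bases, from 2164042 to 2170035, with a score of 3100, the value taken as the ceiling. Another of 1034 bases held the outermost start. No H3K4me1 or H3K36me3 peak lay in the window.

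Inside the H3K27me3 of IGF2 stood a strong H3K4me3 peak from 2158491 to 2161183, with a score of 2961 that exceeded 85.0% of its list. H3K27me3 covered 2686 of its 2693 bases, or 99.7%, and H3K27ac covered 96.4%. The main H3K27ac peak, from 2158418 to 2160663 with a score of 966, and an H3K27me3 peak from 2158422 to 2160636 with a score of 398 differed by 4 bases at one edge and by 27 at the other. H3K27me3 did not stop at the second edge, since its next peak ran from 2160644 to 2163115 with a score of 2164. A second H3K27ac peak of 600 bases, with a score of 54.6, lay fully inside H3K27me3. Over the whole list, 0.435% of H3K27ac peaks were covered fully by H3K27me3. This region lay 9.65 to 12.34 kb into the gene from the outermost start, and IGF2 is known to use several promoters. The weaker H3K4me3 peaks, from 2161446 to 2162100 and from 2165002 to 2166076, had scores of 63.6 and 71.2 and lay wholly inside H3K27me3 without H3K27ac.

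**Figure D2:**
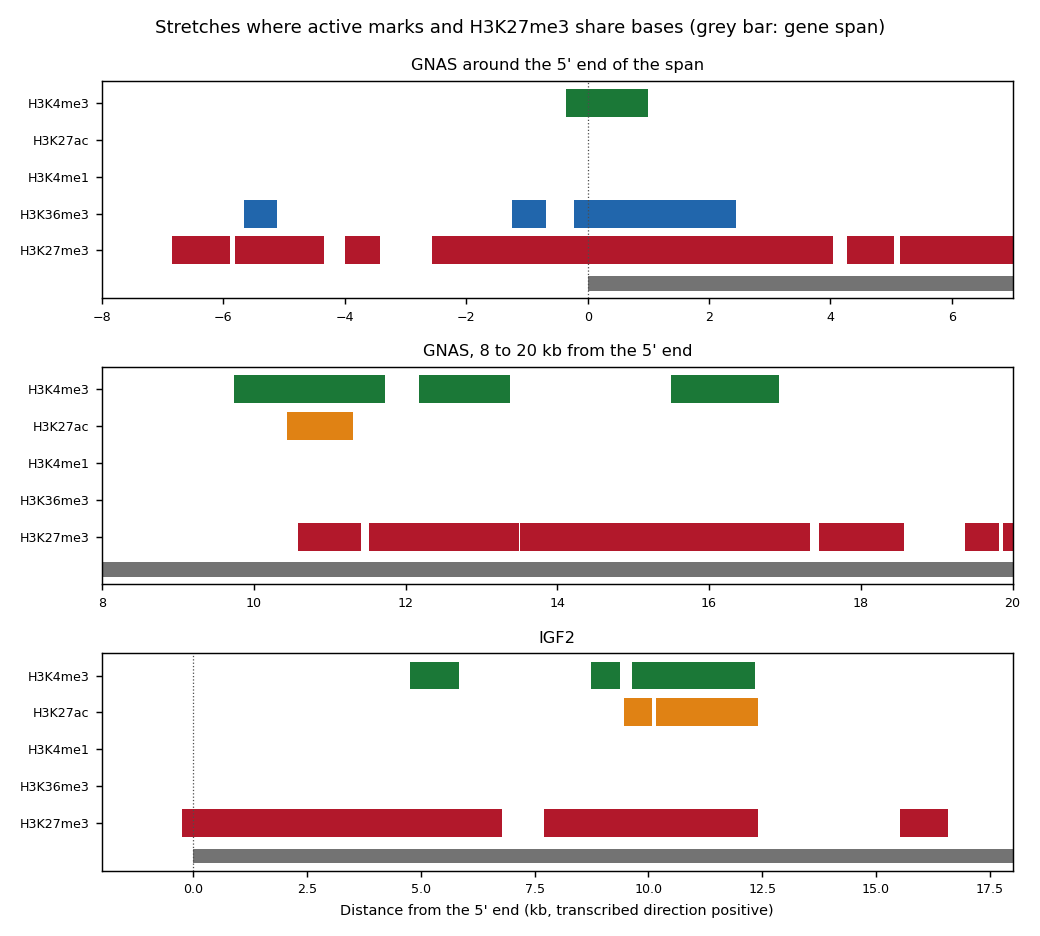
The stretches of GNAS and IGF2 where opposing marks share bases, with the distance from the 5' end in kb on the horizontal axis and 1 bar per peak. At the 5' end of GNAS, H3K4me3 and H3K36me3 lie inside 1 wide H3K27me3 peak, and in IGF2 the H3K4me3, H3K27ac and H3K27me3 peaks end at nearly the same place, about 12.4 kb from the 5' end.

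Counted over the 10 loci, 7 of 17 H3K4me3 peaks, or 41.2%, touched H3K27me3, against 15.0% of the whole H3K4me3 list. All 7 lay in GNAS (4) and IGF2 (3), so the count describes 2 loci and not imprinted loci in general. On chromosome 20, which carries GNAS, the share over all H3K4me3 peaks was 21.2%, and on chromosome 11 it was 16.5%. The share also rests on weak peaks. The 5 that touched H3K27me3 without H3K27ac had scores of 56.7 to 78.5, the lowest of the 17. With scores of at least 100 in every list, 2 of 12 H3K4me3 peaks touched H3K27me3, or 16.7%, close to the 14.6% of the whole list at that score.

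The 2 strong H3K4me3 peaks with H3K27me3, 1 in GNAS and 1 in IGF2, were also the 2 that touched H3K27ac and H3K27me3 together, or 11.8% of 17, against 4.36% of the list. With scores of at least 100 in every list they were 2 of 12, or 16.7%, against 3.49% of the list at that score. In GNAS the H3K27ac and H3K27me3 peaks left at that score touched it on separate bases. H3K27ac touched 10 of 17, near the 61.7% of the list. H3K36me3 touched 1 of 17, against 14.5%. From the side of acetylation, 3 of 14 H3K27ac peaks touched H3K27me3, against 2.13% of that list. These 3 again lay in GNAS (1) and IGF2 (2). With scores of at least 100 in every list 1 of 11 was left, or 9.09%, against 1.66% of the list at that score. Peaks within a locus are neighbours and are not replicates, so the shares were given no test.

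**Figure D3:**
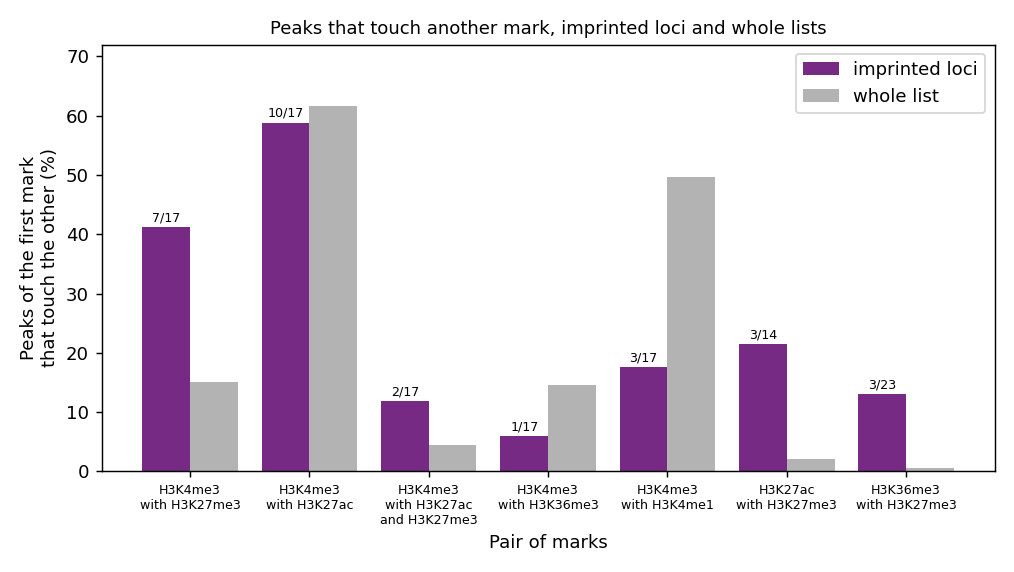
Share of peaks of a first mark that touch another mark, in percent, for the imprinted loci (purple, with counts) and for the whole lists (grey). For H3K4me3 with H3K27me3 the shares are 41.2% at the loci and 15.0% in the list, and with H3K4me1 they are 17.6% and 49.6%; these differences were not tested.

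**Figure D4:**
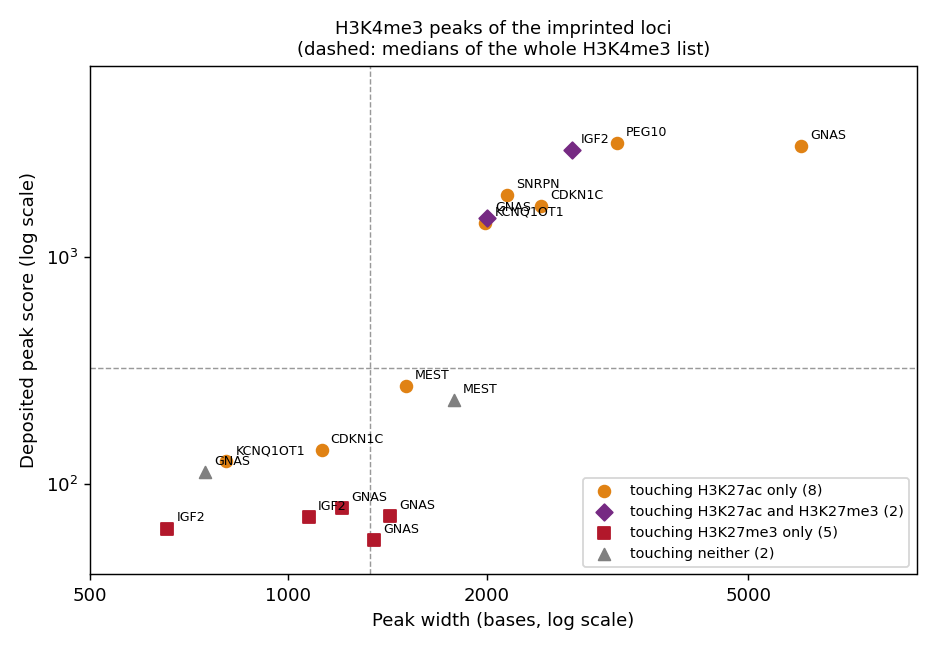
Width in bases and deposited score of the 17 H3K4me3 peaks of the loci, both on log axes, with the medians of the whole H3K4me3 list as dashed lines. The 5 peaks with H3K27me3 and no H3K27ac have the lowest scores, 56.7 to 78.5, and the 2 peaks with both marks lie among the strong peaks, at 1487 and 2961.

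DLK1 and MEG3 lie in 1 imprinted cluster on chromosome 14 and carried H3K27me3 with neither H3K4me3 nor H3K27ac in their windows. DLK1, from 101193202 to 101201467, encodes a membrane protein that inhibits adipocyte differentiation and is expressed from the paternal copy. H3K27me3 covered 37.4% of its window in 5 peaks, the highest share of the 10 loci, and a peak of 6567 bases with a score of 1306 ran from 2.03 kb before the 5' end to 4.54 kb after it. MEG3, from 101292445 to 101327360, is a noncoding RNA with growth-restraining activity expressed from the maternal copy. An H3K27me3 peak of 3614 bases with a score of 1393 ran from 0.97 kb before its 5' end to 2.65 kb after it, and 4 small H3K27me3 peaks of 433 to 563 bases lay elsewhere in the window. The nearest H3K4me3 peak lay 139 kb upstream of DLK1 and 238 kb upstream of MEG3.

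KCNQ1OT1 and CDKN1C belong to 1 imprinted domain on chromosome 11 and both had active marks at the 5' end. KCNQ1OT1, from 2629558 to 2721228 on the minus strand, is a long antisense RNA of the paternal copy that silences neighbouring genes in cis. Its H3K4me3 peak, from 2719416 to 2721407, held the 5' end with a score of 1416, and a second of 805 bases followed upstream with a score of 126. A single H3K27ac peak of 3054 bases, with a score of 918, covered both fully. H3K27me3 was present in the same window as 14 short peaks of 263 to 967 bases with scores of 51.3 to 162. All 14 lay towards the 3' end of the RNA or beyond it, and the nearest of them was 57.9 kb from the H3K4me3 peak. On the upstream side the nearest H3K27me3 peak lay just outside the window, 11.2 kb from the 5' end, with a score of 214. An H3K4me1 peak beyond the 3' end shared 437 bases with 1 of them. This was the 1 place outside GNAS and IGF2 where an active mark shared bases with H3K27me3.

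CDKN1C, from 2904448 to 2906995 on the minus strand, encodes the cyclin-dependent kinase inhibitor p57, expressed from the maternal copy. No H3K27me3 peak lay in its window. An H3K4me3 peak from 2904695 to 2907113 covered the 5' end and nearly the whole gene with a score of 1680, and an H3K27ac peak with a score of 336 lay fully inside it. A second element lay 4.51 to 7.65 kb upstream, where an H3K27ac peak of 3144 bases had a score of 1043. It touched a weak H3K4me3 peak with a score of 141 and 2 H3K4me1 peaks with scores of 102 and 89.6. H3K27ac covered 23.8% of the window, the highest share of the 10 loci.

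SNRPN, PEG10 and MEST are expressed from the paternal copy and had H3K4me3 at the 5' end with no H3K27me3 in the window. SNRPN encodes a small nuclear ribonucleoprotein, and its promoter lies in the imprinting centre of the Prader-Willi region. On chromosome 15 an H3K4me3 peak from 25199998 to 25202148 with a score of 1878 lay inside an H3K27ac peak of 3058 bases with a score of 1265. The body of SNRPN and the sequence just beyond the span carried 9 short H3K36me3 peaks of 282 to 916 bases, starting 8.17 kb from the 5' end, with scores of 52.1 to 115. H3K36me3 covered 12.2% of this window. The lower end of the span is a rounded position, so the distance of 2 bases between it and the H3K4me3 peak has no meaning.

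PEG10, a gene derived from a retrotransposon and needed for the placenta, had the H3K4me3 peak with the highest deposited score of the 17. It ran on chromosome 7 from 94284140 to 94287293, with a score of 3182, above the 3100 that was taken as the ceiling. In the H3K4me3 list, 13.9% of peaks had scores of 3100 or more, among them the widest GNAS peak. The order of scores within this group was given no weight. An H3K27ac peak with a score of 1452 shared 3080 of its 3154 bases. Both extended to each side of the 5' end, 1.50 kb upstream and 1.66 kb downstream for H3K4me3. PEG10 shares this promoter region with SGCE, which is transcribed the other way, and peaks carry no strand. A single H3K36me3 peak of 937 bases, with a score of 105, lay in the gene body.

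MEST, an enzyme of the alpha/beta hydrolase fold family, had weaker marks, on chromosome 7 from 130126016 to 130146133. The H3K4me3 peak at the 5' end, from 130125687 to 130127193, had a score of 269, and an H3K27ac peak of 1085 bases inside it had one of 139. A second H3K4me3 peak, from 130131218 to 130132999, had a score of 234 and touched no other mark. The H3K4me3 scores of the pair were close, and both were below the list's median of 325. The second peak lay 5.20 to 6.98 kb from the 5' end. Of the MEST starts in the GRCh38 table, 2 lie within 0.172 kb of each other at the outer end and 3 lie 5.15 to 5.91 kb further on. The last of these and the outermost are printed above. Which start the paternally expressed transcript uses was not determined here, so neither H3K4me3 peak was assigned to it.

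H19, a noncoding RNA of the maternal copy on chromosome 11 from 2016406 to 2019065 (minus strand), had no H3K4me3, H3K4me1 or H3K36me3 peak in its window. The nearest H3K4me3 peak lay 48.8 kb downstream. An H3K27ac peak of 2582 bases, from 2007726 to 2010307, lay 6.10 to 8.68 kb beyond the 3' end of the gene, with a score of 164. Enhancers shared by H19 and IGF2 are known to lie on this side of H19. A weak H3K27ac peak of 878 bases, with a score of 67.5, began 58 bases upstream of the 5' end, and 2 H3K27me3 peaks with scores of 57.8 and 87.0 lay further upstream. The 1 strong set of active marks in the H19 and IGF2 windows was therefore that of IGF2, where H3K27me3 covered the same bases.

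Over all 10 windows, 489 kb in sum, H3K27me3 covered 13.2% of the bases in 52 peaks, 5.54 times its share of the genome. H3K4me3 covered 6.56% in 17 peaks, 4.30 times its genome share of 1.52%. H3K27ac covered 6.57% in 14 peaks (1.77 times) and H3K36me3 4.21% in 23 peaks (1.17 times). H3K4me1 went the other way, at 3.07% in 15 peaks against 6.04% of the genome, and 3 of 17 H3K4me3 peaks touched it, against 49.6% of the list. That count was 1 of 17 where 50% or more of the shorter peak had to be shared and 1 of 14 in the spans alone. The windows were chosen at genes, and the genome share includes sequence far from genes, so these ratios are no measure of imprinting. H3K27me3 was absent from 4 windows and reached 29.5% to 37.4% in GNAS, IGF2 and DLK1.

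**Figure D5:**
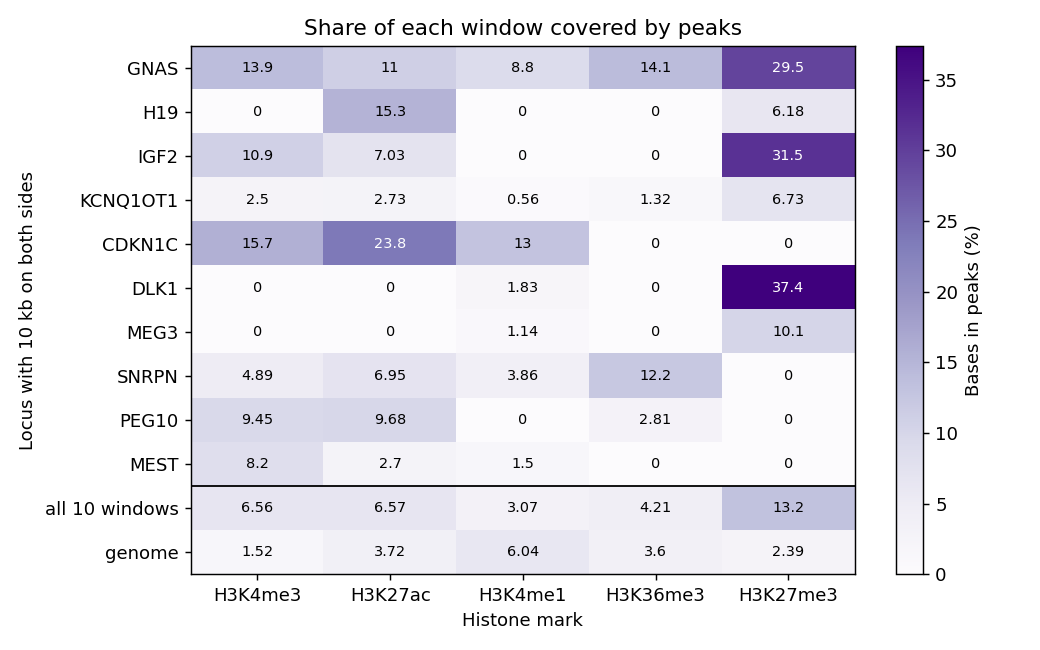
Share of each locus window covered by peaks of each mark, in percent, with all windows together and the genome in the last rows. GNAS, IGF2 and DLK1 stand out for H3K27me3 at 29.5% to 37.4%, and CDKN1C, SNRPN, PEG10 and MEST are at 0 for it.

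The number of members follows the width of the window. The 14 H3K27ac members became 11 in the spans alone and 22 with 25 kb, and the 3 that touched H3K27me3 made up 21.4%, 27.3% and 13.6% of these. The H3K4me3 member farthest from its span lay 8.95 kb away, at GNAS, and was 748 bases wide with a score of 113. The nearest H3K4me3 peak left out lay 15.87 kb from CDKN1C, 1501 bases wide with a score of 249. For H3K27me3 these distances were 8.56 kb (H19, score 87.0) and 11.25 kb (KCNQ1OT1, score 214).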

How the data were processed

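Per the labels, 12 libraries of RWPE-1 cells were sequenced, and both replicates of each mark name 1 combined peak list. Input and DNase libraries were not used. The submitters' processing notes name CASAVA 1.8.2, Bowtie2, MACS 1.4 and build hg19. How replicates were combined, the control library and the caller's settings were not given in the sources used here. Lists deposited by the authors give positions and a score per peak. The score is not defined in the lists and was read as -10 times log10 of the p-value, since its lowest value was 50.0 in each list. Its ceiling was taken as 3100, though this is not a strict limit. In the H3K4me3 list a score of 3100 exceeded 86.1% of peaks, and the 3182 of PEG10 exceeded 99.6%. A narrow-peak caller splits broad marks such as H3K27me3 and H3K36me3, so covered bases are given beside peak counts.

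Positions are hg19, counted from 1. Chromosomes 1 to 22 and X were used, and 179 to 555 peaks per list lay elsewhere and were left out. No hg19 annotation was used: spans are those of the rule for the loci, and strands are textbook knowledge. An overlap of 1 base counted as touching. Each share at the loci was set beside the same share of the whole list, and no test was run. All 10 loci are named, and every H3K4me3 peak is described. The members, lists and comparisons were chosen with earlier results of these data known. Alternatives were windows of 0 and 25 kb, a minimum score of 100, an overlap of 50% or more of the smaller peak, and distances of 0 and 5 kb from the 5' end. The share of peaks covered fully by another mark, and the alternatives for H3K4me3 touching H3K4me1 and H3K36me3 touching H3K27me3, were added after the values were seen. Promoter sequences are from RefSeq (GRCh38.p14) and were matched by symbol for 5 of 10 loci.

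The interval code was tested on simulated lists, with 0 mismatches in 2000 queries against a base-by-base count. Python 3.11.15, numpy 2.4.6, scipy 1.17.1 and matplotlib 3.10.9 were used.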

Additional observations from a re-analysis of the deposited data

How the results depend on the processing

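No paired analysis was possible because each deposited list combines both replicates of a mark, and for the same reason none was left out in turn. Of 49 alternative values, 25 stayed near the value reported, 24 moved and 0 reversed. Scores of at least 100 lowered the H3K4me3 peaks touching H3K27me3 from 7 of 17 to 2 of 12. The 5 lost were those that touched H3K27me3 without H3K27ac, and the H3K4me3 peaks touching H3K27ac stayed at 10. Those touching H3K36me3 fell from 1 to 0. The H3K27ac and the H3K36me3 peaks touching H3K27me3 fell from 3 to 1 each. The loci with H3K4me3 and H3K27me3 within 1 kb of the 5' end fell from 1 to 0. At 5 kb from the 5' end these loci were 2, GNAS and IGF2. H3K36me3 peaks touching H3K27me3 were 1 in the spans alone and 5 with 25 kb, and H3K4me3 peaks touching H3K4me1 fell from 3 to 1 in the spans alone and to 1 with the 50% overlap. The alternatives for these 2 pairs were chosen after seeing the data. The windows and the 50% overlap left the other 5 counts of touching peaks within 1.5 times the reported one.

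The covered share depended on the window. With the spans alone (0 kb), with 25 kb and with scores of at least 100, H3K4me3 covered 9.30%, 4.26% and 5.39%, H3K27ac 7.61%, 5.67% and 6.00%, H3K36me3 6.05%, 3.05% and 3.05%, and H3K27me3 16.0%, 11.7% and 10.5%. H3K4me1 covered 3.48% with 25 kb and 1.68% with scores of at least 100. Depth is unknown, so a missing peak may be one that was not detectable.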

Other observations

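Beyond the windows, the loci differed in how far the missing marks were. The H3K27me3 peak nearest to the 5' end of SNRPN lay 477 kb upstream with a score of 75.1, and those of PEG10 and MEST lay 138 and 246 kb downstream with scores of 55.8 and 56.5. At CDKN1C it was close, at 14.4 kb downstream, and strong, with a score of 1025. The nearest H3K36me3 peak lay 182 kb from the 5' end of IGF2, 200 kb from that of DLK1 and 187 kb from that of MEG3. H3K4me1 held none of the 10 5' ends, and the nearest of its peaks was 1.28 kb away, at MEST.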
